A study of Bos taurus with 8 samples.

Results

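Genes whose products work at the cell surface, beneath the membrane or on endosomes were followed after treatment of endothelial cells (EC) with leukemia inhibitory factor (LIF), a cytokine of the IL-6 family. They were ITGAV, PCDH18, PHLDB2, EHD3 and SWAP70, 5 of the 25889 rows of the count table. They were taken by name from the authors' list of genes that changed after LIF in bovine choroidal EC (BCE), so their LIF effect in BCE cells is described here without a test. RNA was sequenced from BCE cells and from bovine aortic EC (BAE), primary cultures bought from commercial suppliers, the BAE cells as a single lot. Cells were first kept for 3 h in assay medium, which was low-glucose DMEM with antibiotics and bovine calf serum (BCS), at 10% BCS for BCE cells and 1% BCS for BAE cells. They then received LIF at 10 ng/ml or, as vehicle, PBS containing 0.1% BSA, and were harvested after 6 h. This gave 4 groups (vehicle-treated BCE, LIF-treated BCE, vehicle-treated BAE and LIF-treated BAE) with 2 libraries in each. Before the assay, BCE cells had been maintained on fibronectin with bFGF and VEGF, while no growth factor or coating is named for BAE cells. Cell type, cell source, serum and maintenance conditions thus cannot be told apart in any comparison of BCE with BAE cells.

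As background, ITGAV is the alpha-V integrin subunit, which pairs with beta subunits into receptors for RGD-bearing matrix proteins such as vitronectin and fibronectin, and is known in proliferating vessels. PCDH18 is a non-clustered protocadherin, a transmembrane protein of the cadherin superfamily. PHLDB2 (LL5-beta) binds phosphoinositides and anchors microtubule ends at the basal cell cortex near integrin adhesions. EHD3 is an ATPase of the EH-domain family that shapes the tubules through which internalized receptors return to the cell surface, and SWAP70 is a phosphoinositide-binding protein linked to Rac and to F-actin at membrane ruffles. Integrins themselves are taken up and recycled through endosomes, which is how these processes meet in a spreading or migrating cell.

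Library totals ranged from 18600598 to 35269335 counts. The 5 genes had between 783 and 23389 counts in every library and passed the filter on low counts in each comparison. Levels are given in CPM (counts scaled to a common library total, with TMM factors over all 8 libraries), and 3 counts correspond to at most 0.156 CPM. Between both libraries of a group the coefficient of variation of a gene's CPM ran from 0.0528% to 6.86%, over 20 combinations of gene and group, and it was above counting error alone in 16 of them. Of 40 marker genes listed for endothelial cells and for smooth muscle, fibroblasts, pigment epithelium, leukocytes and epithelium, 0 could be paired with an identifier of the count table, so the identity of the cells was not checked against markers.

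**Figure D1:**
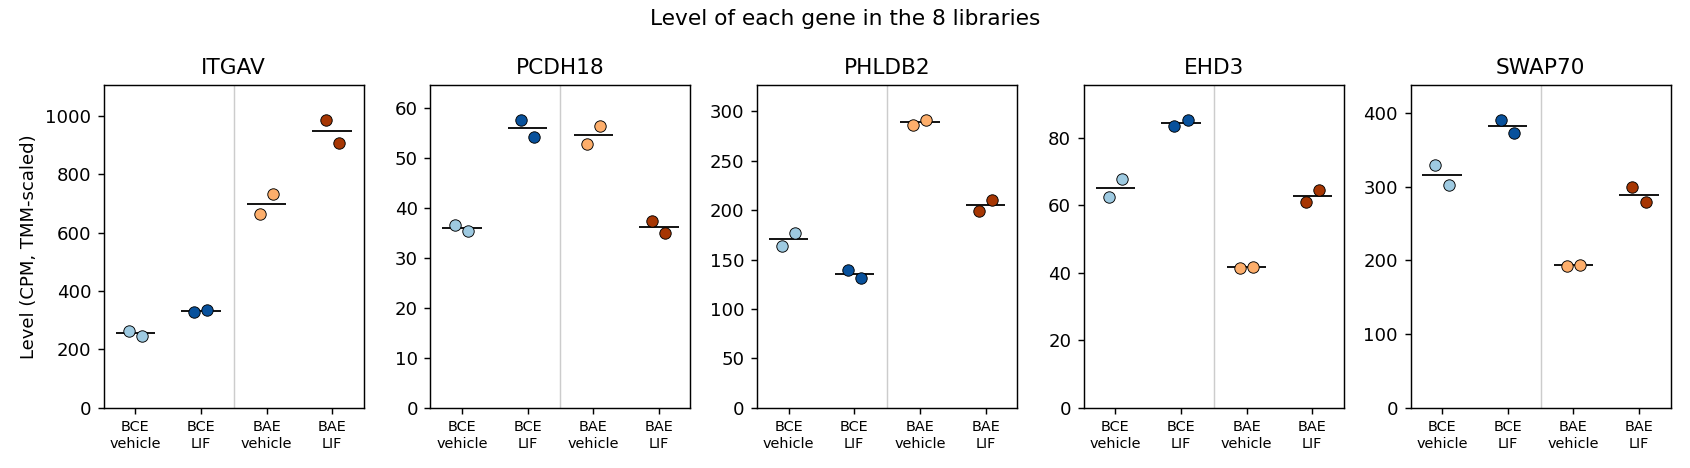
Level of each gene in CPM (y axis, from 0, scaled separately per panel) in the 8 libraries; points are libraries, horizontal lines are means of 2 libraries, and BCE and BAE groups stand left and right of the grey line. Within each cell type, LIF-treated and vehicle-treated libraries are apart in every panel. Such separation holds for 61.2% of all genes in BAE and 39.8% in BCE cells. PCDH18 is the gene of the 5 whose direction differs between the cell types.

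All 5 genes changed after LIF in BAE cells. The authors' list from which they came was made without the BAE libraries, but these 5 were picked from it with earlier BAE results known. ITGAV, EHD3 and SWAP70 rose, and PCDH18 and PHLDB2 fell, each past an adjusted p of 0.05 in edgeR's quasi-likelihood test over 13034 genes. Of all genes tested, 22.2% passed that threshold in BAE cells, 13.6% upward and 8.55% downward. In BCE cells, 4 of the 5 stood higher with LIF and PHLDB2 stood lower. The share of all genes called in BCE cells was 0.922%, made up of 0.692% higher and 0.231% lower, and nothing is read from it, since this contrast chose the genes. LIF-treated and vehicle-treated libraries did not overlap for any of the 5 genes in either cell type, and with 2 libraries a group this held for 61.2% of all genes tested in BAE and 39.8% in BCE cells, so it sets no gene apart. Groups are bulk cultures, in which fewer cells expressing a gene and less RNA per cell cannot be told apart.

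ITGAV (ENSBTAG00000019929) was the alpha-V subunit gene. Its level was 264 and 246 CPM in the vehicle-treated BCE libraries and 328 and 337 CPM in the LIF-treated ones. In BAE cells it was 665 and 733 CPM with vehicle and 988 and 908 CPM with LIF. LIF-treated libraries were the higher ones in both cell types, and every BAE library lay above every BCE library. The share of all genes with such an order of cell types was not counted. In BAE cells ITGAV rose by a log2 fold change of 0.47 (SE, standard error, 0.0551, BH-adjusted p = 8.08e-06, edgeR quasi-likelihood), a fold of 1.39. The 4 ratios between single LIF-treated and vehicle-treated BAE libraries ran from 1.24 to 1.49. In BCE cells the log2 fold change was 0.38 (SE 0.0519, not tested). The BAE effect exceeded the BCE effect by 0.09 on the log2 scale, a gap that ran from 0.01 without LIF-treated BAE replicate 1 to 0.16 without vehicle-treated BAE replicate 2 and was not tested. Alpha-V integrin RNA was thus higher with LIF in both cell types, from base levels that differed 2.74-fold.

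PCDH18 (ENSBTAG00000015549) was the gene whose direction turned between the cell types. In BCE cells it had 36.5 and 35.33 CPM with vehicle and 57.6 and 54.1 CPM with LIF. In BAE cells it had 52.8 and 56.3 CPM with vehicle and 37.4 and 34.9 CPM with LIF. Both LIF-treated BCE libraries lay above both vehicle-treated ones, and both LIF-treated BAE libraries lay below theirs. In BAE cells this protocadherin fell by 0.56 on the log2 scale (SE 0.0690, BH-adjusted p = 1.43e-05, edgeR quasi-likelihood), that is to 0.678 of its level with vehicle, with single-library ratios from 0.620 to 0.708. In BCE cells the log2 fold change was 0.64 (SE 0.0699, not tested), a fold of 1.56. The difference between the 2 effects, BAE minus BCE, was -1.20 on the log2 scale and was not tested, since it contains the contrast by which the gene was chosen.

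Because of these opposite movements, the PCDH18 levels of the cell types changed places. With vehicle the ratio of BCE to BAE levels was 0.659, and with LIF it was 1.55. The vehicle-treated BCE and LIF-treated BAE libraries overlapped at the low level (means of 35.9 ± 0.822 and 36.1 ± 1.76 CPM, SD, n = 2), and the vehicle-treated BAE and LIF-treated BCE libraries overlapped at the high level (54.55 ± 2.51 and 55.9 ± 2.49 CPM, SD, n = 2). Among the 107 named genes of the authors' BCE table that were tested in both cell types, 6 had the opposite sign in BAE cells. Of these, BAMBI, RAPH1 and SNAPC1 did not pass the threshold there. The other 3 passed it, and PCDH18 was one of them. The others, named after their values were seen, were RGS3, a regulator of G protein signaling, with log2 fold changes of 0.31 in BCE and -0.15 in BAE cells, and PLEKHG1, a guanine nucleotide exchange factor, with -0.37 in BCE and 0.18 in BAE cells. In BAE cells both log2 fold changes were nearer to 0 than that of PCDH18.

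A further protocadherin of the table, PCDH12 (ENSBTAG00000008437), known as a junctional protein of endothelial cells, did not share the turn. Its log2 fold change was -0.38 in BCE cells, where it was also chosen by the contrast, and in BAE cells it fell by 0.40 (SE 0.0796, BH-adjusted p = 0.0014, edgeR quasi-likelihood). PCDH12 thus stood lower with LIF in both cell types. With vehicle it was higher in BCE than in BAE cells by 1.60 on the log2 scale (SE 0.0746), the reverse of PCDH18. That comparison shares the vehicle-treated BCE libraries on which both genes were selected, so the contrast between them is a description.

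PHLDB2 (ENSBTAG00000001209), the cortical anchor, was the gene with less RNA after LIF in both cell types. It had 163.5 and 177 CPM in vehicle-treated and 140 and 131 CPM in LIF-treated BCE libraries, and 286 and 292 CPM in vehicle-treated and 199 and 211 CPM in LIF-treated BAE libraries. The LIF-treated libraries lay below the vehicle-treated ones in both cell types. As for ITGAV, every BAE library lay above every BCE library, an order whose share among all genes was not counted. In BAE cells PHLDB2 fell by 0.46 on the log2 scale (SE 0.0430, BH-adjusted p = 5.69e-07, edgeR quasi-likelihood), with single-library ratios from 0.682 to 0.735. In BCE cells the log2 fold change was -0.33 (SE 0.0590, not tested). LIF-treated BAE cells, at 205 ± 8.38 CPM (SD, n = 2), still held more PHLDB2 RNA than vehicle-treated BCE cells, at 170 ± 9.55 CPM (SD, n = 2).

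EHD3 (ENSBTAG00000001662), of the recycling endosome, had 62.5 and 67.7 CPM with vehicle and 83.6 and 85.4 CPM with LIF in BCE cells. In BAE cells it had 41.5 and 41.6 CPM with vehicle and 60.9 and 64.6 CPM with LIF. The LIF-treated libraries were the higher ones in both cell types. In BAE cells EHD3 rose by a log2 fold change of 0.63 (SE 0.0620, BH-adjusted p = 1.22e-06, edgeR quasi-likelihood), a fold of 1.54. In BCE cells the log2 fold change was 0.38 (SE 0.0625, not tested). With LIF, BAE cells reached the level of vehicle-treated BCE cells: 62.7 ± 2.57 CPM against 65.1 ± 3.63 CPM (SD, n = 2), with overlapping libraries.

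SWAP70 (ENSBTAG00000001987), linked to Rac and actin, had the same order of groups as EHD3. It had 330 and 302 CPM with vehicle and 391 and 373 CPM with LIF in BCE cells. In BAE cells it had 192 and 194 CPM with vehicle and 300 and 279 CPM with LIF. Again the LIF-treated libraries were the higher ones in both cell types. In BAE cells SWAP70 rose by a log2 fold change of 0.61 (SE 0.0455, BH-adjusted p = 3.86e-08, edgeR quasi-likelihood), a fold of 1.53. In BCE cells the log2 fold change was 0.27 (SE, standard error, 0.0551, not tested), the smallest of the 5 genes. LIF-treated BAE and vehicle-treated BCE cells were neighbours in the order of levels, at 290 ± 14.5 and 316 ± 19.7 CPM (SD, n = 2), with 2.60 CPM between their closest libraries, which is less than either SD.

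**Figure D2:**
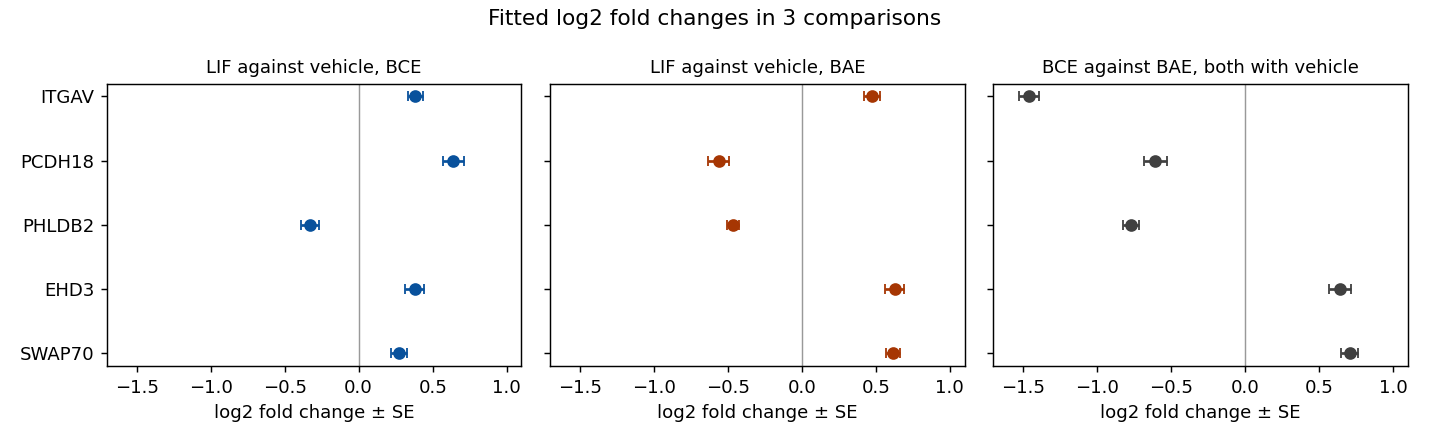
Fitted log2 fold changes (x axis) of the 5 genes (y axis) with bars of 1 SE (standard error), for LIF against vehicle in BCE cells, LIF against vehicle in BAE cells, and BCE against BAE cells with vehicle. PCDH18 lies at 0.64 in BCE and at -0.56 in BAE cells, while the other 4 genes keep their sign between the first and second panel. The first panel shows the contrast that chose the genes, so its bars are a description only.

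The size of the LIF effects can be set beside those of all genes. In BAE cells the median absolute log2 fold change over all genes tested was 0.14, and the 5 genes ran from 0.46 (PHLDB2) to 0.63 (EHD3), at percentiles 88 to 93.1 of absolute change. The median signed change of all genes was near 0, at -0.0039. All genes tested are no matched comparator, since the 5 genes were taken from the authors' BCE table with BAE results known. The 102 other named genes of that table had a median signed change of 0.71 in BAE cells, against 0.47 for the 5 genes. None of the 5 changed by a log2 fold change of 1 or more in either cell type. The effect was farther from 0 in BAE than in BCE cells for ITGAV, PHLDB2, EHD3 and SWAP70, and nearer to 0 for PCDH18. These differences were not tested.

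**Figure D3:**
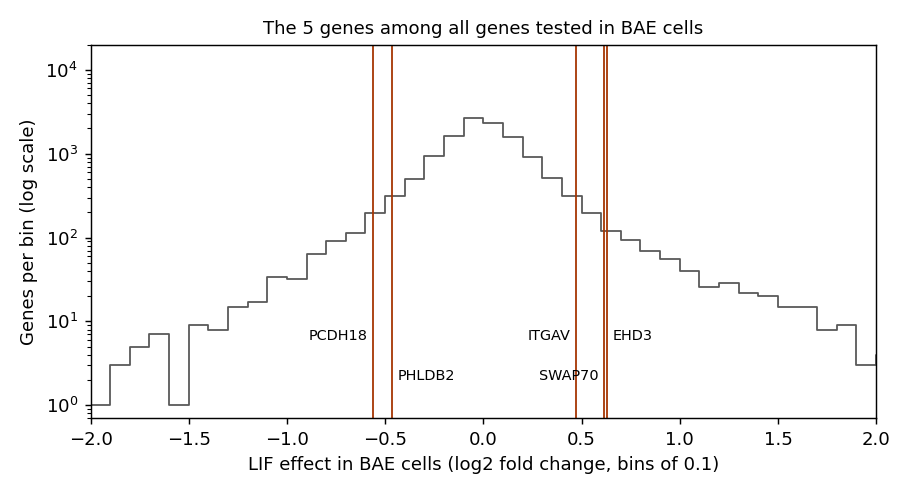
Number of genes per bin of 0.1 (y axis, log scale) by LIF effect in BAE cells (x axis, log2 fold change, shown from -2 to 2) over the 13034 genes tested; vertical lines mark the 5 genes. PCDH18 and PHLDB2 lie on the left flank and ITGAV, SWAP70 and EHD3 on the right flank of the distribution.

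Without LIF, the question was how the genes differ between choroidal and aortic cells. With vehicle alone, all 5 genes differed between the cell types, where 53.8% of the 13426 genes tested did so, 26.2% higher and 27.6% lower in BCE cells. This comparison shares the 2 vehicle-treated BCE libraries with the contrast that chose the genes. For all 5 genes the libraries of the cell types did not overlap, as for 77.3% of all genes tested. ITGAV, PHLDB2 and PCDH18 were lower in BCE cells. ITGAV was lower by 1.46 on the log2 scale (log2 fold change -1.46, SE 0.0657, adjusted p = 3.25e-09), PHLDB2 had a log2 fold change of -0.77 (SE 0.0559, adjusted p = 2.62e-07) and PCDH18 of -0.60 (SE 0.0772, adjusted p = 3.86e-05), all by edgeR's quasi-likelihood method. The other 2 were higher in BCE cells, EHD3 with a log2 fold change of 0.64 (SE 0.0728, adjusted p = 1.38e-05) and SWAP70 with 0.71 (SE 0.0594, BH-adjusted p = 9.58e-07, edgeR quasi-likelihood). The median absolute difference over all genes was 0.32. ITGAV thus stood at percentile 86.8 of absolute difference, and the other 4 at percentiles 69.3 to 75.4.

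With LIF, the ratio of BCE to BAE levels moved toward 1 for PHLDB2, from 0.589 to 0.661, for EHD3, from 1.57 to 1.35, and for SWAP70, from 1.63 to 1.32. For ITGAV it was 0.365 with vehicle and 0.351 with LIF. These ratios of mean log2 CPM share the BCE libraries that chose the genes and are given without a test. The order of the 4 groups for EHD3 and SWAP70 ran from vehicle-treated BAE through LIF-treated BAE and vehicle-treated BCE to LIF-treated BCE cells. For ITGAV the order ran from vehicle-treated BCE through LIF-treated BCE and vehicle-treated BAE to LIF-treated BAE cells. Neighbouring groups did not overlap at any step for ITGAV, PHLDB2 and SWAP70. The share of all genes for which this holds was not counted, so it sets no gene apart.

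Across the 8 libraries the genes fell into patterns that can be described by correlation, in which the 8 points come from only 4 groups and share cell type and treatment. EHD3 and SWAP70 had a Pearson correlation of log2 CPM of 0.971, and PHLDB2 ran against both (-0.964 with EHD3 and -0.982 with SWAP70). For PCDH18 the correlations with the other 4 ran from -0.161 to 0.0663. Among the other 110 named genes, those most like ITGAV were SNX18, a sorting nexin of endocytic membranes (0.998), LPCAT2 (0.998) and APBA1 (0.995). Those most like PHLDB2 were CXCR4 (0.946) and THSD1 (0.920). For EHD3 they were TBXAS1 (0.992), TMEM204 (0.988) and ID1 (0.984), and for SWAP70 EFNA1 (0.993), ID1 (0.992) and TBXAS1 (0.988). PCDH18 had no close match, the nearest being BAMBI (0.50), CHRM4 (0.328) and INSIG1 (0.281).

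**Figure D4:**
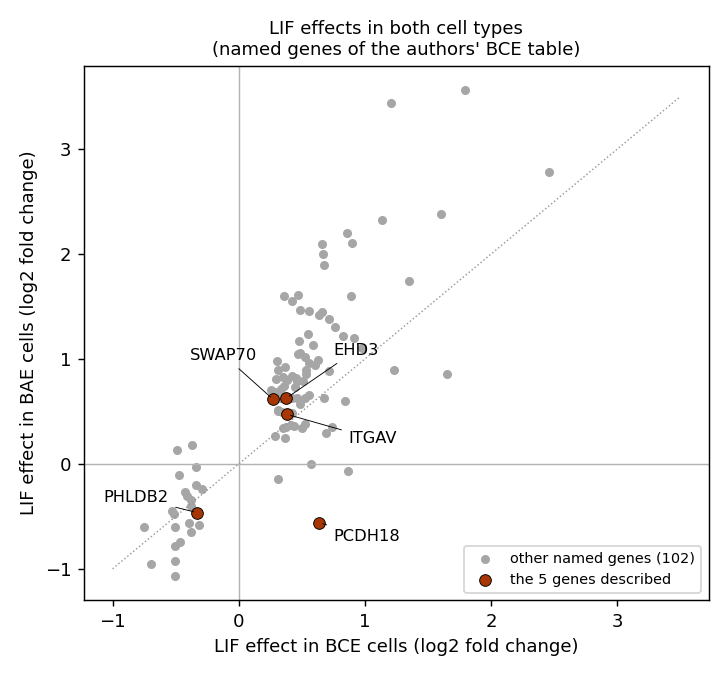
LIF effect in BAE cells (y axis) against LIF effect in BCE cells (x axis), both as log2 fold changes, for the 107 named genes of the authors' BCE table tested in both; the dotted line marks equal effects and the 5 genes described are labelled. PCDH18, at 0.64 and -0.56, lies apart in the lower right, and the other 4 lie in the quadrants of equal sign.

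Other genes of these pathways could be followed only as far as they have a name. Of 103 genes listed for integrins, their ligands and adaptors, protocadherins, cortical anchoring, endocytic recycling and Rac or actin regulation, 5 could be paired with an identifier: THBS2, PCDH12, RAB11FIP1, SNX18 and SYNPO. The beta subunits that pair with alpha-V, the other EHD proteins and the partners of PHLDB2 are not analysed here. A second list held 11 adhesion and trafficking genes of the authors' BCE table, which that table had selected on the BCE libraries: SELP, ICAM1, RAB11FIP1, SNX18, SYNPO, THBS2, GPC1, SH3PXD2B, VLDLR, ARRDC3 and LRRC32, which include all of those just named but PCDH12. The list was picked with results known, and all 11 had positive log2 fold changes in BCE cells, so their count is a description. All 11 rose in BAE cells (median 0.72 on the log2 scale). Among all genes tested 13.6% rose, which is no matched comparator for genes chosen in this way. Some genes of the table outside the list behaved otherwise. PCDH12 and THSD1, a thrombospondin-domain membrane protein, fell in BAE cells by 0.40 and 0.20 on the log2 scale. RAPH1, an actin-linked protein, did not pass the threshold there (log2 fold change 0.14, against -0.49 in BCE cells). These were named after their values were seen. The largest increases were those of ARRDC3, an arrestin-domain protein of receptor trafficking, with a log2 fold change of 1.60 (SE 0.0724), and of ICAM1, the leukocyte adhesion receptor, with 1.47 (SE 0.0512). RAB11FIP1, an effector of the recycling GTPase Rab11 and so from the same route as EHD3, rose by 1.02 (SE 0.0480), and SNX18 rose by 0.52 (SE 0.0445).

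SYNPO, an actin-bundling partner of alpha-actinin, rose by 0.72 (SE 0.0473), and THBS2, a matrix glycoprotein, rose by 0.75 (SE 0.0457). Among the 102 other named genes of the table tested in BAE cells, 77 rose, 18 fell and 7 did not pass the threshold. ITGAV, EHD3 and SWAP70 moved in the direction of the larger number, and PHLDB2 and PCDH18 in that of the smaller. Of all genes tested in BAE cells 13.6% rose and 8.55% fell, again no matched comparator, since the table was selected on the BCE libraries. Between vehicle-treated cells, 5 of the 11 genes were higher in BCE, 5 were lower and 1, THBS2, did not pass (log2 fold change -0.10, BH-adjusted p = 0.134, edgeR quasi-likelihood). Among all genes tested, 26.2% were higher and 27.6% lower in BCE cells. This comparison shares the vehicle-treated BCE libraries on which the 11 genes were selected. LRRC32, a surface anchor for latent TGF-beta, which alpha-V integrins activate, differed most, with a log2 fold change of 3.06 (SE 0.103). RAB11FIP1 (-1.06) and SNX18 (-1.22) were lower in BCE cells, opposite to EHD3 and in the direction of ITGAV.

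The authors' list was cut at an adjusted p of 0.05, and its genes had absolute log2 fold changes in BCE cells from 0.26 to 2.46 in the fit used here, so SWAP70, at 0.27, stood near its lower end, while the gene outside the list with the lowest p (ENSBTAG00000012817) had a log2 fold change of -0.45. In RefSeq's annotation of assembly ARS-UCD2.0, which is not the build used for counting, SWAP70 overlaps 1 other gene, ITGAV 2 and PHLDB2 2, and PCDH18 and EHD3 overlap none, and it is not stated whether the counting used strand.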

How the data were processed

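Read pairs were aligned by the authors with TopHat2 (version 2.0.12, with Bowtie2 2.2.3) to bovine assembly UMD 3.1. They counted reads on each gene with HTSeq (version 0.6.1) and deposited raw counts, 1 column per library. Treatment of reads that map to several genes is not stated. The authors call the 2 libraries of a group biological replicates, without saying whether their cultures came from separate animals. The BAE cells were a single lot, so the spread behind the BAE p-values is that between cultures of this lot. No lot is named for BCE cells. The p-values of BCE against BAE cells likewise rest on the spread between cultures, with a single commercial source for each cell type. The deposited tables of genes called with DESeq (version 1.18.0) hold the authors' own fold changes and p-values, which were not used. The table named for BAE cells is a copy of that for BCE cells. Names were read from the BCE table and the supplementary list of genes. The reference table of RefSeq genes gives no Ensembl identifiers and no sequences were used.

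Counts were analysed with edgeR (version 4.0.16) in R (version 4.3.3), using filterByExpr (minimum count 10, minimum total 15), TMM scaling, the quasi-likelihood test with Benjamini-Hochberg adjustment over all genes tested and a threshold of 0.05. Each comparison was fitted on its own 4 libraries without a block. Standard errors were derived from each log2 fold change and F statistic. Those of the 5 genes in BCE cells come from the contrast that chose the genes and are a description only. CPM used TMM scaling over all 8 libraries, so ratios of CPM differ slightly from fitted folds. Pearson correlations were taken on log2 CPM (prior count 2) and, for each gene, up to 3 of the most similar named genes are given (1 is not reported here). Of each gene list the text names the largest called changes and members of the same families. The genes and lists were chosen with earlier results of these data known. Alternatives were DESeq2's size factors, DESeq2's test (version 1.42.0), 2 other filters, all 8 libraries in one fit, a replicate block and each library left out. On simulated counts for the BAE comparison (13034 genes, 200 changed), 59% of genes changed by a log2 fold change of 0.5 and 88% of those changed by 1 were recovered, with 10 and 5 unchanged genes called.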

Additional observations from a re-analysis of the deposited data

Results flagged for a closer look

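For PCDH18, every LIF-treated BCE library lay above and every LIF-treated BAE library lay below the vehicle-treated libraries of its cell type. Groups of 2 libraries did not overlap for 39.8% of all genes in BCE and 61.2% in BAE cells. Its LIF effect in BAE minus that in BCE cells was -1.20 on the log2 scale, and this difference was not tested, since the BCE effect was used to choose the gene. Over the 14 alternatives, the difference ran from -1.26 to -1.15. None of the other 4 genes showed opposite directions.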

How the results depend on the processing

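All 5 genes remained past the threshold in BAE cells and between vehicle-treated cells under each of the 10 alternatives, with unchanged directions. In BAE cells, adjusted p-values ran up to 0.00111 (PCDH18), and between vehicle-treated cells up to 0.000302 (PCDH18). In the main fits, 22.2% of all genes tested passed the threshold in BAE cells and 53.8% between vehicle-treated cells. The comparison of vehicle-treated cells shares the 2 vehicle-treated BCE libraries with the contrast that chose the genes. In BCE cells 4 of 5 log2 fold changes stayed positive under each alternative. The BAE effect exceeded the BCE effect for 3 genes throughout, by as little as 0.01 for ITGAV without LIF-treated BAE replicate 1. Both results contain the BCE contrast that chose the genes, and the alternatives draw on the same libraries. The stable signs are therefore a description and were not tested. Log2 fold changes in BAE cells ranged from 0.40 to 0.54 for ITGAV, from -0.62 to -0.52 for PCDH18, from -0.51 to -0.44 for PHLDB2, from 0.58 to 0.65 for EHD3 and from 0.55 to 0.66 for SWAP70, with each library left out in turn. Where a group was left with 1 library, it was assumed to vary like the other group.

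The number of all genes called moved more, and the cause was not tested. In BAE cells it went from 2889 to 1920 with DESeq2's test, and from 1807 to 2905 with each library left out, lowest without LIF-treated BAE replicate 1. In BCE cells it went from 120 to 437 without a filter, 217 with all 8 libraries in one fit, and from 55 to 1423 with each library left out. It was 1423 without vehicle-treated BCE replicate 1, 477 without replicate 2 of that group, and 56 and 55 without LIF-treated BCE replicate 1 and 2. Between vehicle-treated cells it ran from 5454 to 7292 with each library left out. With the replicate number as a block it was 226 in BCE, 2887 in BAE and 7049 between vehicle-treated cells. Numbers are those of the sample titles. In the count table's column names, libraries titled replicate 1 carry different numbers in the groups compared, while those titled replicate 2 carry the same number. No link between the libraries joined by the block is stated. Deviations of same-numbered libraries correlated at 0.100 in BCE cells, -0.0211 in BAE cells and -0.0531 between vehicle-treated groups. The block changed no call of the 5 genes. Counting error exceeded the spread between libraries in 4 of 20 combinations of gene and group, such as PCDH18 in vehicle-treated BCE cells (3.23% against 2.29%).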
